A study of Mus musculus with 14 samples.

Results

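The 43 genes described here work in DNA replication, cell cycle control and mitosis, and were chosen as a list of 43 symbols. All 43 were found among the 22798 genes measured by RNA-seq in epithelial cells of the embryonic mouse stomach at day E14.5, and all 43 had at least 1 FPKM in at least 3 of the 14 libraries. FPKM (fragments per kilobase of transcript, scaled to the mapped fragments of each library) are the values as deposited by the authors. The hindstomach was represented by 5 libraries labelled as a conditional knockout of Gata4 (replicates 1 to 5) and by 3 controls of that cross (replicates 2, 3 and 4). The forestomach was represented by 3 libraries labelled as a conditional knock-in of Gata4 (replicates 1, 2 and 4) and by 3 controls of that cross (replicates 2, 3 and 5). The labels call both control groups wild type and also give them as controls of the conditional crosses. The sources used here name neither the alleles, nor the Cre driver, nor any allele that the controls carry. Whether replicates are different embryos or litters is also unstated, so the p-values below cover only variation among these samples, part of which may be technical.

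Cyclins and their kinases drive a cell through the stages of division, and CDK inhibitors hold them back. Replication genes such as the Mcm helicase subunits are transcribed mainly under E2F factors toward S phase, whereas mitosis genes such as Top2a and Cdc20 are transcribed later, through CCAAT boxes and a short element called the cell cycle homology region (CHR). The forestomach of the mouse is lined by stratified squamous epithelium, whose divisions are in the basal layer, and the hindstomach by columnar glandular epithelium. Gata4 itself is a DNA-binding regulator of endoderm genes. The design asks how its loss in the hindstomach and its addition in the forestomach altered expression.

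Upstream sequences of 4 members are shown because they carry the elements through which replication and mitosis genes are known to be controlled, and because these 4 genes had the contrasting values given below. Each is the 250 bases before the RefSeq transcription start on GRCm38.p6, a build other than the authors' mm9, read 5′ to 3′ on the gene's strand. Capitals mark 3 kinds of element on either strand. These are the word CCAAT for the CCAAT box, the words TTTGAA and, as a second form, TTCGAA for the CHR, and the words TTCCCGC and, as a second form, TTGGCGC for E2F factors. The sequences lie at chr1:128359706-128359955 on the minus strand for Mcm6, chr4:118437344-118437593 on the minus strand for Cdc20, chr11:99024190-99024439 on the minus strand for Top2a, and chr19:37376132-37376381 on the plus strand for Kif11.
Mcm6: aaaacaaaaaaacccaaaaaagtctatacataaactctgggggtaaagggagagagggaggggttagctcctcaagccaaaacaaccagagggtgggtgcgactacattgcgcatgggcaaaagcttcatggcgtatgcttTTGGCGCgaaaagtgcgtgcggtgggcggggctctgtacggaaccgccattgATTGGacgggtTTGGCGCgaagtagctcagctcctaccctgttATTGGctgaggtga
Cdc20: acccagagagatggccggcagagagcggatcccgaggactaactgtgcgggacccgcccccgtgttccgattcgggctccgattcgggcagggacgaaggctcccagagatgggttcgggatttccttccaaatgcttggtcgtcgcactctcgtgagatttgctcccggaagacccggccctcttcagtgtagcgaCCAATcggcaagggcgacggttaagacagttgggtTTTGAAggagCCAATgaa
Top2a: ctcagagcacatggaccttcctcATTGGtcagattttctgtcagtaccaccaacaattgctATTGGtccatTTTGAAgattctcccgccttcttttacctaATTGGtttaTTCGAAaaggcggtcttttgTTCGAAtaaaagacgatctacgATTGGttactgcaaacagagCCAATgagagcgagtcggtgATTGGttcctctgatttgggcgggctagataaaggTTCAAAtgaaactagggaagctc
Kif11: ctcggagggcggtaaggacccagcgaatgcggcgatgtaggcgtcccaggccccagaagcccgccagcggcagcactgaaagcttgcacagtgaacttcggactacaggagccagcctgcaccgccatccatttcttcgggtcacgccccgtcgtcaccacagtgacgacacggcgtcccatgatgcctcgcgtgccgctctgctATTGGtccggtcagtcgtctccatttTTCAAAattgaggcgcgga
Mcm6 held 2 E2F words and 2 CCAAT boxes and no CHR word in this window. Cdc20 held 1 CHR word between 2 CCAAT boxes, Kif11 held 1 of each, and Top2a held 4 CHR words and 6 CCAAT boxes. Promoters were given for 35 of the 43 members. A CCAAT box was present upstream of 27 of these 35, or 77.1%, against 37.5% of 27025 genes with a window of the same length. A CHR word was present for 12 of 35, or 34.3%, against 19.6% of genes, and both elements for 11 of 35, or 31.4%, against 7% of genes. An E2F word was present for 9 of 35, or 25.7%, against 6.45% of genes. The words TTGGCGC and CCAAT can overlap when they run in opposite directions. These matches describe the letters present and were not tested as binding sites.

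Gata4 itself had 16.9, 19.4, 13.02, 32.1 and 59.6 FPKM in the libraries labelled knockout 1 to 5, against 65.7, 61.5 and 64.9 FPKM in hindstomach controls 2, 3 and 4. The library labelled knockout 5 lay just under its controls. On the log2 scale Gata4 differed by -1.37, which did not pass (limma adjusted p = 0.0672). With the GC slope defined below as a covariate the difference was -0.38 (adjusted p = 0.354). Gata4 had 0.402, 0.319 and 1.27 FPKM in libraries labelled knock-in 1, 2 and 4, against 4.497, 1.33 and 0.573 FPKM in forestomach controls 2, 3 and 5, so it was not higher in the libraries labelled knock-in, against their label. The log2 difference was -0.755 as deposited (limma adjusted p = 0.268) and 0.298 with the covariate (adjusted p = 0.56). The sources used here do not state which part of the gene was deleted or added. Absolute depth was unknown, and relative depth, read from the smallest steps between low values, ran between 48.4% and 100% of the deepest library. The libraries also differed in how strongly levels followed transcript GC content. This GC slope is the slope, over all genes, of a library's log2(FPKM + 1), centred on each gene's mean, per 10% of GC. It was -0.547, -0.429, -0.6, 0.0944 and 0.507 in the libraries labelled knockout 1 to 5, against 0.585 to 0.64 in hindstomach controls. It was -0.73, -0.88 and -0.0909 in the libraries labelled knock-in 1, 2 and 4, against 0.854, 0.645 and -0.639 in forestomach controls 2, 3 and 5. Gapdh, outside the list at 56.6% GC, had 5.62, 11.5, 4.49, 47.6 and 136 FPKM in the libraries labelled knockout 1 to 5. Hindstomach controls 2, 3 and 4 had 185, 153 and 176 FPKM of it. Gapdh had 2.68, 2.24 and 22.8 FPKM in libraries labelled knock-in, against 194, 114 and 3.11 FPKM in forestomach controls. Its log2 differences, -3.12 and -2.78, did not pass (limma adjusted p = 0.107 and 0.166). With the GC slope as a covariate they were -0.01 and 0.54. Over all genes 66.3% of the variance lay on the first principal component, and over the 14 libraries, which fall in 4 groups, the absolute Pearson r between that component and GC slope was 0.99. The hindstomach groups did not overlap in GC slope, whereas forestomach control 5 lay among the libraries labelled knock-in. GC slope and group thus coincide in part and cannot be fully told apart. Calls on the members are given as deposited and with the GC slope as a covariate.

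Markers of mesenchyme, the tissue around the epithelium, were measured too. The summed FPKM of 11 mesenchyme markers ran between 278 and 738 in the libraries labelled knockout, against 74.6 to 193 in hindstomach controls, and 8 of the 11 genes rose (4 with the GC slope as a covariate). The same sum ran between 193 and 536 in the libraries labelled knock-in, against 670 to 1111 in forestomach controls, and 2 of the 11 fell (0 with the covariate, and 8 as deposited at an unadjusted p under 0.05 in limma). None of the 11 was at 0 in a whole group. Summed FPKM of 9 epithelial markers ran between 506 and 1033 in the libraries labelled knockout, against 1280 to 1554 in hindstomach controls. However, 0 of these 9 genes passed in either fit, and 4 were lower as deposited at an unadjusted p under 0.05 in limma. Their median difference was -1.362 as deposited and -0.492 with the covariate. Of 6 gastric glandular markers tested 5 fell in the libraries labelled knockout in both fits, with sums of 191 to 565 FPKM, against 2021 to 6409 FPKM in hindstomach controls. Of 5 squamous markers tested 4 fell in the libraries labelled knock-in (0 with the covariate), with sums of 55.2 to 226 FPKM, against 203 to 1906 FPKM in forestomach controls. Smooth muscle markers summed to 10.03 to 124 FPKM in those libraries, against 86.2 to 1183 FPKM, with a median difference of -2.809. Of those 6 genes 0 passed in limma, and 6 were lower at an unadjusted p under 0.05. For the epithelial sum, forestomach libraries labelled knock-in (538 to 951) and controls (420 to 1014) overlapped. The part of these differences in the results below was not tested, and in bulk RNA fewer cells of a type and less RNA per cell cannot be told apart.

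The members were all well expressed. By mean FPKM over all 14 libraries, Pcna (the sliding clamp of DNA polymerase, 240.0 FPKM), Top2a (which untangles chromosomes, 132 FPKM), Ccnd2 (a D-type cyclin of G1, 109 FPKM) and Mcm6 (a helicase subunit, 103 FPKM) stood highest. Cdkn1a (12.2 FPKM), Ccne2 (14.4 FPKM), Plk1 (14.9 FPKM) and Kif2c (15.1 FPKM) stood lowest. Together the 43 genes held 0.594% to 0.700% of the FPKM sum in libraries labelled knockout, against 0.492% to 0.527% in hindstomach controls. They held 0.650% to 0.770% in libraries labelled knock-in, against 0.360% to 0.505% in forestomach controls. Neither pair of groups overlapped in this share. The FPKM sum it is divided by was 295470 to 346504 in libraries labelled knockout, against 355624 to 407343 in hindstomach controls. The members' own summed FPKM overlapped there, at 1871 to 2231 against 1874 to 2017. It did not overlap in the forestomach, at 1871 to 2166 in libraries labelled knock-in, against 1545 to 1758 in controls.

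**Figure D1:**
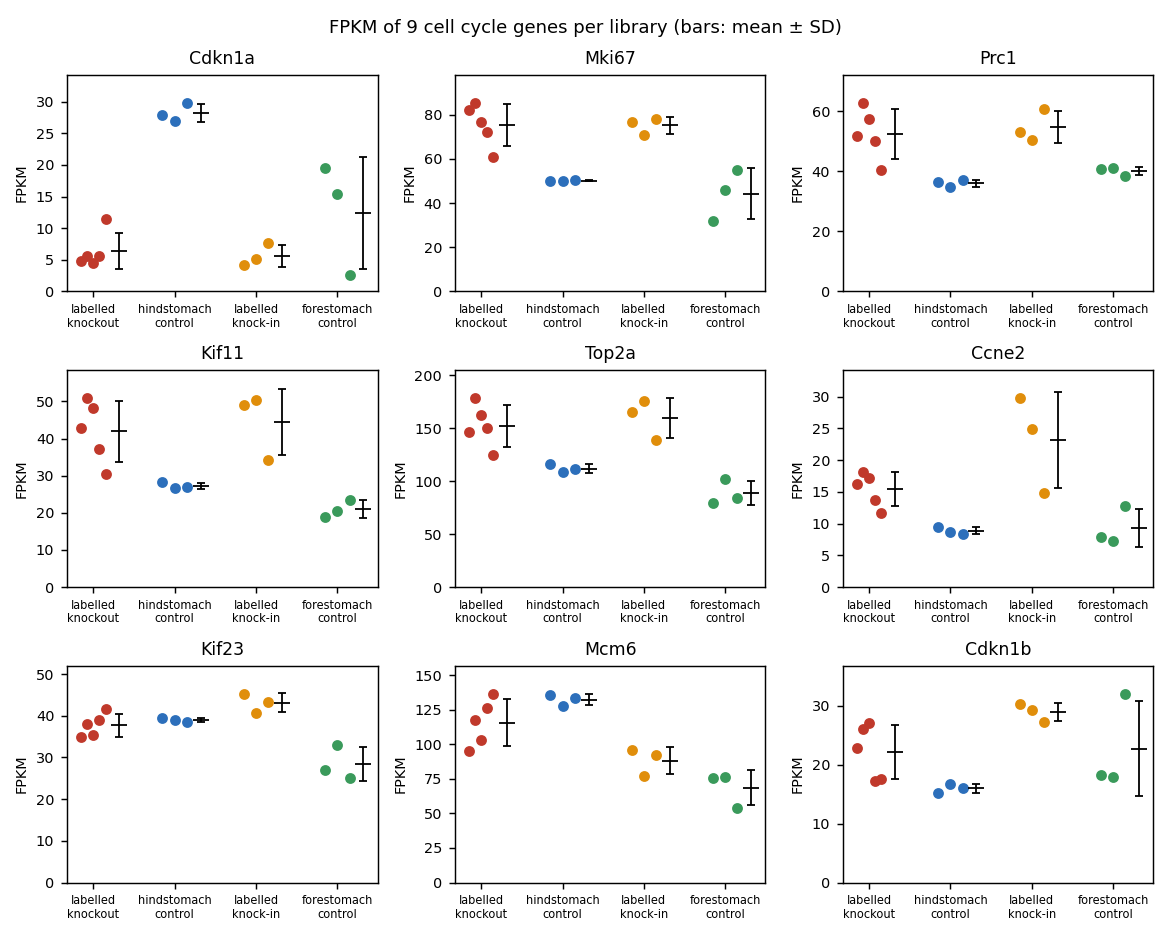
FPKM of 9 members in each of the 14 libraries (points, replicates in number order from left to right), with the group mean ± SD beside them (n = 5, 3, 3 and 3 libraries). Cdkn1a is far lower in the 5 libraries labelled knockout than in hindstomach controls, whose values lie between 26.9 and 29.8 FPKM, and forestomach controls split widely for Cdkn1a and Cdkn1b.

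In the hindstomach, the largest difference among the members was in Cdkn1a, a CDK inhibitor and textbook target of Trp53. Cdkn1a had 4.74, 5.65, 4.57, 5.60 and 11.4 FPKM in the libraries labelled knockout 1 to 5, against 27.9, 26.9 and 29.8 FPKM in hindstomach controls 2, 3 and 4. All 5 libraries lay below all controls, and the library labelled knockout 5 was the highest of its group. Cdkn1a fell by 2.05 on the log2 scale (SE 0.47, limma with Benjamini-Hochberg adjustment over 12694 genes, adjusted p = 0.0183). With the GC slope as a covariate Cdkn1a fell by 1.02 (SE 0.23, adjusted p = 0.0157). The other CDK inhibitor, Cdkn1b, had 22.8, 26.0, 27.2, 17.2 and 17.6 FPKM in the libraries labelled knockout, against 15.2, 16.8 and 16.1 FPKM in hindstomach controls. Its groups lay apart in the other direction, but the difference of 0.42 did not pass (adjusted p = 0.14). With the GC slope as a covariate the difference in Cdkn1b was 0.02 (adjusted p = 0.932). The call on Cdkn1a held in 15 of 17 alternative settings, and was lost without hindstomach control 2 (adjusted p = 0.0786) or control 4 (adjusted p = 0.101).

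Of the 43 members 3 rose in the libraries labelled knockout: Mki67, Kif11 and Prc1. That is 6.98% of them, against 6.96% of all genes tested, and 1 member, or 2.33%, fell, against 6.28% of all genes. In either direction 9.3% of the members were called, against 13.2% of all genes, so the share of members called was not above the background. The median member difference was 0.205 on the log2 scale, against -0.083 over all genes. The groups lay apart with the libraries labelled knockout higher for 19 members, or 44.2%, against 17.7% of all genes, and lower for 3 members, or 6.98%, against 24.9% of all genes. Scaling bore on these counts. After rescaling to a common FPKM sum the median over all genes was 0.161 and that of the members 0.494, with 12 members that rose and 1 that fell, while 1291 of all genes rose and 648 fell, against 883 and 797 as deposited. After quantile normalization the medians were 0.136 and 0.342, and 13 members rose and 1 fell, against 1260 and 1220 of all genes.

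Mki67, whose protein coats mitotic chromosomes and serves as the standard marker of dividing cells, had 82.0, 85.3, 76.4, 72.0 and 61.0 FPKM in the libraries labelled knockout 1 to 5, against 49.9, 50.1 and 50.2 FPKM in hindstomach controls. Every library labelled knockout lay above every control, by 0.57 ± 0.16 log2 units on average (SE, limma adjusted p = 0.0397). Kif11, the kinesin that pushes the spindle poles apart, had 42.95, 50.8, 48.1, 37.2 and 30.4 FPKM, against 28.2, 26.6 and 26.9 FPKM in hindstomach controls. The groups lay apart again, with the library labelled knockout 5 nearest to the controls (log2 difference 0.58 ± 0.18, adjusted p = 0.0491). Prc1 bundles the microtubules of the spindle midzone for cytokinesis. It had 51.8, 62.7, 57.4, 49.95 and 40.5 FPKM in the libraries labelled knockout, against 36.3, 34.8 and 36.9 FPKM in hindstomach controls, also without overlap (log2 difference 0.52 ± 0.14, adjusted p = 0.0293). With the GC slope as a covariate none of the 3 passed. Their log2 differences were then 0.32 for Mki67 (adjusted p = 0.141), 0.27 for Kif11 (adjusted p = 0.193) and 0.46 for Prc1 (adjusted p = 0.06). The count of members that rose was 0 without any single one of the libraries labelled knockout 1 to 4 or of hindstomach controls 2 to 4, and 12 without the library labelled knockout 5. At an unadjusted p under 0.05 there were 16 with all libraries, and between 12 and 16 where the count was 0. Of all 12694 genes 2209 were higher at that threshold with all libraries, and between 1309 and 2113 where the count was 0.

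By role, members of chromosome structure and spindle had the most calls in the hindstomach comparison, 2 of 9, with 7 of 9 differences positive and a median of 0.477. In cytokinesis 1 of 6 rose, with a median of 0.39. No member of DNA replication (10 genes), of the G1 and S phase cyclins (5 genes), of the G2 and M phase cyclins and kinases (7 genes) or of the spindle checkpoint (4 genes) passed, although 2 of each were higher at an unadjusted p under 0.05. Their medians were -0.174, -0.287, -0.302 and 0.194 in that order, and with the GC slope as a covariate 0.226, 0.336, 0.268 and 0.227, so 3 of the 4 changed sign. The order of the roles changed as well, since with the covariate 2 of 5 G1 and S phase genes rose and none of the 9 of chromosome structure and spindle or the 6 of cytokinesis passed. Among genes that did not pass, Ccne2, an activator of Cdk2 at the start of S phase, had the largest positive difference, 0.72 ± 0.23 (adjusted p = 0.0557). Ccne2 had 16.3, 18.1, 17.2, 13.7 and 11.7 FPKM in the libraries labelled knockout, against 9.49983, 8.67 and 8.43 FPKM in hindstomach controls. Its partner in function Ccne1 pointed the other way as deposited, at -0.36 ± 0.38, but rose with the GC slope as a covariate, at 0.49 ± 0.15 (adjusted p = 0.0457). Ccnd1, which carries growth signals to the G1 kinases, also rose in that fit, at 0.75 ± 0.18 (adjusted p = 0.0228). It had 22.3, 24.0, 21.5, 29.5 and 24.8 FPKM in the libraries labelled knockout, against 17.6, 18.7 and 13.1 FPKM in hindstomach controls, without overlap. With the covariate 39 of 43 members were positive, against 7741 of all 12694 genes. In that fit 2 members rose, or 4.65%, against 7.63% of all genes, and 1 fell, or 2.33%, against 4.7%.

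**Figure D2:**
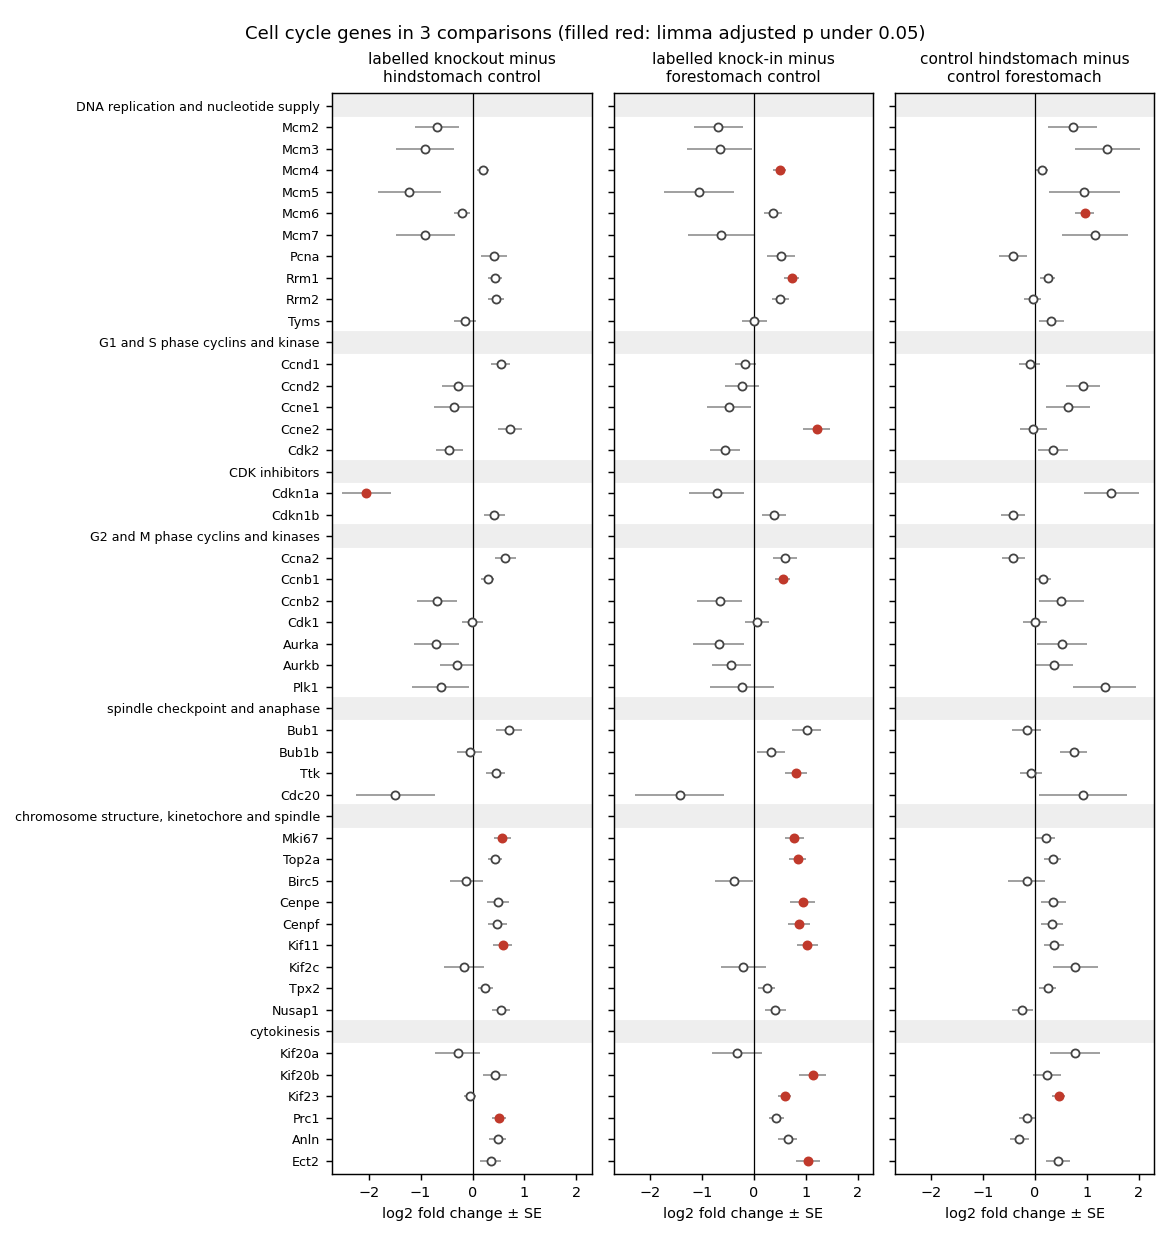
Log2 difference ± SE of each of the 43 members in the 3 comparisons, ordered by role, with members at an adjusted p under 0.05 in red. In the knock-in panel 13 members are called and all are positive, while in the knockout panel Cdkn1a stands apart at -2.05.

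In the forestomach, 13 of 43 members rose in the libraries labelled knock-in and 0 fell in the limma fit. At an unadjusted p under 0.05 in that fit 18 members were higher and 0 lower, against 1317 and 3312 of all 12694 genes. The 13 called members are 30.2%, against 2.62% of all genes that rose, 3.22% that fell and 5.85% in either direction. The median member difference was 0.373, against -0.371 over all genes. The groups lay apart for 18 members, or 41.9%, with the libraries labelled knock-in higher, against 7.78% of all genes, and for 0 members with them lower, against 12.2% of all genes. By role the genes that rose were 5 of 9 of chromosome structure and spindle, 3 of 6 of cytokinesis, 1 of 4 of the spindle checkpoint, 1 of 7 of the G2 and M phase cyclins and kinases, 2 of 10 of DNA replication and 1 of 5 of the G1 and S phase cyclins. These counts were, with the GC slope as a covariate, 3, 3, 1, 0, 3 and 1 in the same order. Since Gata4 was not higher in these libraries, the comparison is of libraries by their label. The median over all genes was -0.044 after rescaling and 0.075 after quantile normalization, against 0.8 and 0.559 for the members. Over all genes 333 rose and 409 fell as deposited, against 576 and 177 after rescaling and 368 and 121 after quantile normalization.

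Top2a had 165, 176 and 139 FPKM in libraries labelled knock-in 1, 2 and 4, against 79.8, 102 and 84.6 FPKM in forestomach controls 2, 3 and 5. All 3 lay above all controls (log2 difference 0.84 ± 0.16 SE, limma adjusted p = 0.0142). Kif11 had 49.0, 50.3 and 34.2 FPKM in libraries labelled knock-in, against 19.0, 20.4 and 23.6 FPKM in forestomach controls. The difference was 1.03 ± 0.20 (adjusted p = 0.0159), with the library labelled knock-in 4 the lowest of its group but still above the controls. Mki67 had 76.4, 70.5 and 78.2 FPKM, against 31.99, 45.7 and 54.9 FPKM in forestomach controls, again with no overlap (0.78 ± 0.18, adjusted p = 0.0338). Cenpf, a large protein of the kinetochore and the nuclear matrix, had 24.1, 26.0 and 18.7 FPKM, against 9.10, 12.6 and 14.9 FPKM (0.87 ± 0.20, adjusted p = 0.0337). In all 4 genes every library labelled knock-in lay above every control. Cenpe, the kinesin that carries chromosomes along spindle microtubules, rose as well, by 0.95 on the log2 scale (adjusted p = 0.0429).

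The cytokinesis genes that rose act at the midzone and the cleavage furrow. Kif23, the motor subunit of centralspindlin, had 45.2, 40.7 and 43.3 FPKM in libraries labelled knock-in, against 27.1, 32.9 and 25.1 FPKM in forestomach controls (0.59 ± 0.13, adjusted p = 0.024). Ect2, the exchange factor that switches on RhoA at the furrow, had 43.9, 47.7 and 26.1 FPKM, against 14.8, 16.2 and 23.7 FPKM (1.05 ± 0.23, adjusted p = 0.0297). Kif20b, a kinesin of the midbody, had 29.8, 31.7 and 18.9 FPKM, against 8.04, 10.8 and 16.7 FPKM (1.14 ± 0.26, adjusted p = 0.0337). For Ect2 and Kif20b the library labelled knock-in 4 was close to forestomach control 5, while for Kif23 all 3 libraries stood clear of all controls. Prc1, which rose in the libraries labelled knockout, had 53.1, 50.5 and 60.6 FPKM in those labelled knock-in, against 40.8, 40.9 and 38.6 FPKM in forestomach controls. These did not overlap, but the difference of 0.44 did not pass (adjusted p = 0.0876).

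Among replication genes, Rrm1, the large subunit of ribonucleotide reductase, had 98.1, 90.2 and 87.2 FPKM in libraries labelled knock-in, against 49.3, 54.7 and 61.4 FPKM in forestomach controls (0.73 ± 0.15, adjusted p = 0.0209). Mcm4 had 72.7, 69.4 and 68.8 FPKM, against 47.9, 44.7 and 56.0 FPKM (0.50 ± 0.12, adjusted p = 0.0397). Both genes were higher in all 3 libraries than in any control. Ccne2 had the largest positive difference of any member in this comparison. It had 29.7, 25.0 and 14.8 FPKM in libraries labelled knock-in, against 7.96, 7.32 and 12.7 FPKM in forestomach controls (1.21 ± 0.26, adjusted p = 0.0251). Its level in the library labelled knock-in 4 was near that of forestomach control 5. The mitotic cyclin Ccnb1 (0.56, adjusted p = 0.0453) and the checkpoint kinase Ttk (0.81, adjusted p = 0.0453) also rose.

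No member fell in the forestomach comparison, and the most negative difference did not pass. It was that of Cdc20, which activates the anaphase-promoting complex, at -1.43 ± 0.85 (adjusted p = 0.207). Cdc20 had 5.96, 3.30 and 15.4 FPKM in libraries labelled knock-in, against 50.5, 35.9 and 4.08 FPKM in forestomach controls, so forestomach control 5 sat among the libraries labelled knock-in. The CDK inhibitors did not pass either. Cdkn1a had 4.10, 5.12 and 7.61 FPKM, against 19.4, 15.4 and 2.53 FPKM in forestomach controls (adjusted p = 0.297), with forestomach control 5 the lowest of all 14 libraries. Cdkn1b had 30.4, 29.4 and 27.4 FPKM, against 18.2, 17.9 and 32.05 FPKM, with forestomach control 5 the highest (adjusted p = 0.197).

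With the GC slope as a covariate, 11 members rose and 0 fell in the forestomach comparison, or 25.6%, against 2.62% of all genes in that fit that rose, 3.06% that fell and 5.67% in either direction. Of the 43 members 41 were positive, against 5895 of all 12694 genes. Kif23 passed with 0.72 ± 0.11 (adjusted p = 0.00399) and Top2a with 0.72 ± 0.16 (adjusted p = 0.0238). Mcm6 (0.67, adjusted p = 0.00944), Mcm7 (0.79, adjusted p = 0.0281) and Bub1, a kinase of the spindle checkpoint (0.44, adjusted p = 0.0498), passed in that fit and not as deposited. Mki67 (0.52, adjusted p = 0.0638), Mcm4 (0.41, adjusted p = 0.0613), Ccnb1 (0.54, adjusted p = 0.0588), Ttk (0.42, adjusted p = 0.0713) and Cenpe (0.49, adjusted p = 0.0638) no longer passed. The value of Ccnb1 was close to the one as deposited, whereas those of Ttk and Cenpe were much smaller. The count as deposited rested on single libraries. It was 0 without the library labelled knock-in 1 or 2 or without forestomach control 2, and 4 without forestomach control 3. Without the library labelled knock-in 4 it was 15, and without forestomach control 5 it was 20, where 8 members fell. The calls over all 12694 genes moved too, at 120, 126, 118, 329, 3283 and 7015 in the same order, against 742 with all libraries. In a limma fit of the libraries labelled knock-in and their controls alone 0 members passed, as did 0 of all 12694 genes. At an unadjusted p under 0.05 that fit had 17 members higher and 0 lower, and 631 of all genes higher and 1301 lower.

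Between control regions, 2 of 43 members were higher in the hindstomach and 0 lower in the limma fit. At an unadjusted p under 0.05 in that fit 7 were higher and 0 lower, against 2031 and 2099 of all 12694 genes. The 2 called members are 4.65%, against 9.7% of all genes that were higher, while 10.7% of all genes were lower and 20.3% were called in either direction. The median member difference was 0.339, against 0.14 over all genes, and 0.254 against 0.025 after quantile normalization. Mcm6 had 135, 128 and 134 FPKM in hindstomach controls 2, 3 and 4, against 75.5, 76.1 and 53.9 FPKM in forestomach controls 2, 3 and 5. The regions lay far apart, by 0.96 ± 0.18 log2 units (limma adjusted p = 0.00211), and Mcm6 passed in all 15 alternative settings, with adjusted p between 1.09e-05 and 0.0327. Kif23 had 39.5, 39.1 and 38.6 FPKM in hindstomach controls, against 27.1, 32.9 and 25.1 FPKM in forestomach controls (0.46 ± 0.13, adjusted p = 0.0215), and passed in 5 of 15 settings. It did not pass without any single one of hindstomach controls 2, 3 and 4 or of forestomach controls 2 and 5 (adjusted p between 0.06 and 0.071). Forestomach control 5 was the lowest library for both genes. The sum of mesenchyme markers was 74.6 to 193 FPKM in hindstomach controls, against 670 to 1111 FPKM in forestomach controls, and its part in these differences was not tested.

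The largest difference between regions among the members was that of Cdkn1a, 1.47 ± 0.53, which did not pass (adjusted p = 0.0707). Cdkn1a was at 28.2 ± 1.46 FPKM in hindstomach controls and 12.5 ± 8.82 FPKM in forestomach controls (SD, n = 3 each), and the regions did not overlap. The most negative was that of Cdkn1b, -0.43, with 16.0 ± 0.774 FPKM in hindstomach controls and 22.7 ± 8.08 FPKM in forestomach controls (SD, n = 3 each), also without overlap (adjusted p = 0.214). The regions lay apart with the hindstomach higher for 17 members, or 39.5%, against 23% of all genes, and lower for 2, or 4.65%, against 18.4% of all genes. With the GC slope as a covariate 16 members were higher and 0 lower, or 37.2%, against 22.2% of all genes higher, 19.8% lower and 42% in either direction in that fit. These 16 included 5 of 10 replication genes, with Mcm3 at 0.88 (adjusted p = 0.00173), and Cdkn1a at 1.06 (adjusted p = 0.00193). Region and cross cannot be told apart, since the controls of each region came from a different cross.

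The knockout and knock-in comparisons share no library, so their effects were subtracted and tested in the same limma fit. Only Kif23 differed among the 43 members as deposited, or 2.33%, against 10.8% of all genes, of which 7.62% were higher and 3.19% lower. Kif23 had 34.8, 38.0, 35.4, 39.0 and 41.6 FPKM in the libraries labelled knockout, against 39.5, 39.1 and 38.6 FPKM in hindstomach controls, which overlapped and gave a difference of -0.05. Its forestomach difference was 0.59, and the knockout effect minus the knock-in effect was -0.65 ± 0.17 (adjusted p = 0.0285). This difference passed in 12 of 20 settings. It did not pass without any single one of the libraries labelled knockout 1 and 3, hindstomach controls 2 to 4, the library labelled knock-in 1 or forestomach control 2 (adjusted p between 0.0536 and 0.0763). Among the 43 members, Ccnd1 had the most positive value of this difference, 0.71 (adjusted p = 0.139), and Cdkn1a the most negative, -1.34 (adjusted p = 0.325). With the GC slope as a covariate 6 members differed, or 14%, against 27.1% of all genes (18% higher and 9.05% lower), and among them were Cdkn1a at -1.41 ± 0.28 (adjusted p = 0.00336) and Ccnd1 at 0.69 ± 0.23 (adjusted p = 0.039).

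**Figure D3:**
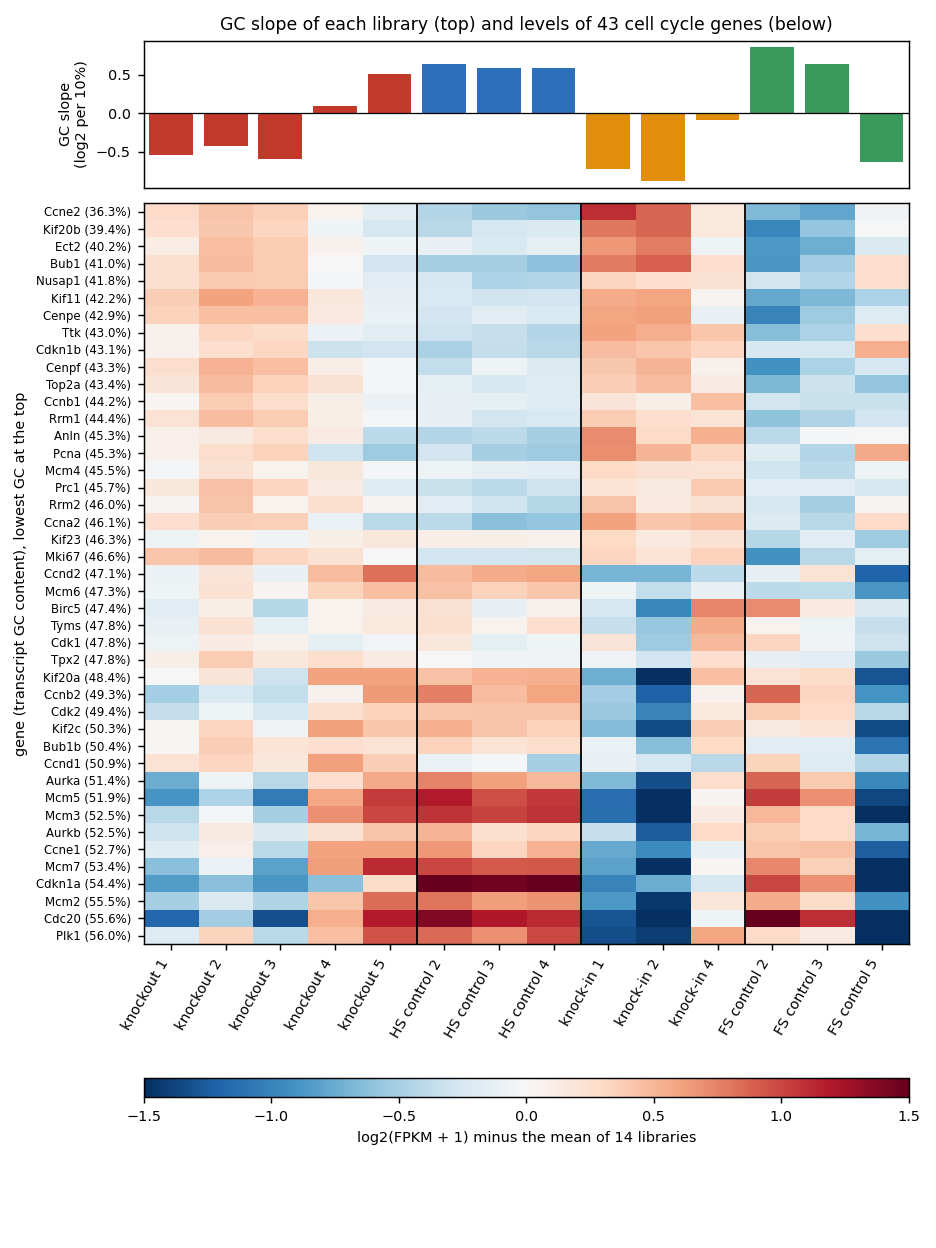
Top, GC slope of each library in log2 per 10% of transcript GC; below, log2(FPKM + 1) of the 43 members minus each gene's mean over 14 libraries, genes ordered by transcript GC content, with colours ending at ±1.5. Members with low GC are high, and members with high GC low, in libraries with a negative slope, which include the libraries labelled knockout 1 to 3, knock-in 1 and 2 and forestomach control 5.

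Whether a member was higher or lower followed the base composition of its transcript, which ran between 36.3% GC for Ccne2 and 56.0% GC for Plk1. Of the 21 members below the members' median of 47.1% GC, 20 were positive in the libraries labelled knockout and 21 in those labelled knock-in. Of the 22 members at or above it, 2 were positive in the libraries labelled knockout and 5 in those labelled knock-in. Across the 43 members, which are not independent replicates, the log2 difference had a Pearson r with transcript GC of -0.811 (knockout), -0.886 (knock-in) and 0.648 (control regions). Over 12609 genes with known GC the same r was -0.581, -0.65 and 0.21. With the GC slope as a covariate the members' r was 0.165, 0.028 and 0.289 in the same order. Spearman's rho in that fit was 0.456, -0.056 and 0.236, so a positive rank relation with GC was present in the knockout comparison. Over the 12609 genes r in that fit was 0 in each comparison, since the covariate is itself each library's slope on GC. The loss of the trend is therefore built into the fit and is no separate result about the members. Of the 13 members that rose in the libraries labelled knock-in, all 13 lay below the median GC, as did all 3 that rose in the libraries labelled knockout, while Cdkn1a lies above it at 54.4%.

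**Figure D4:**
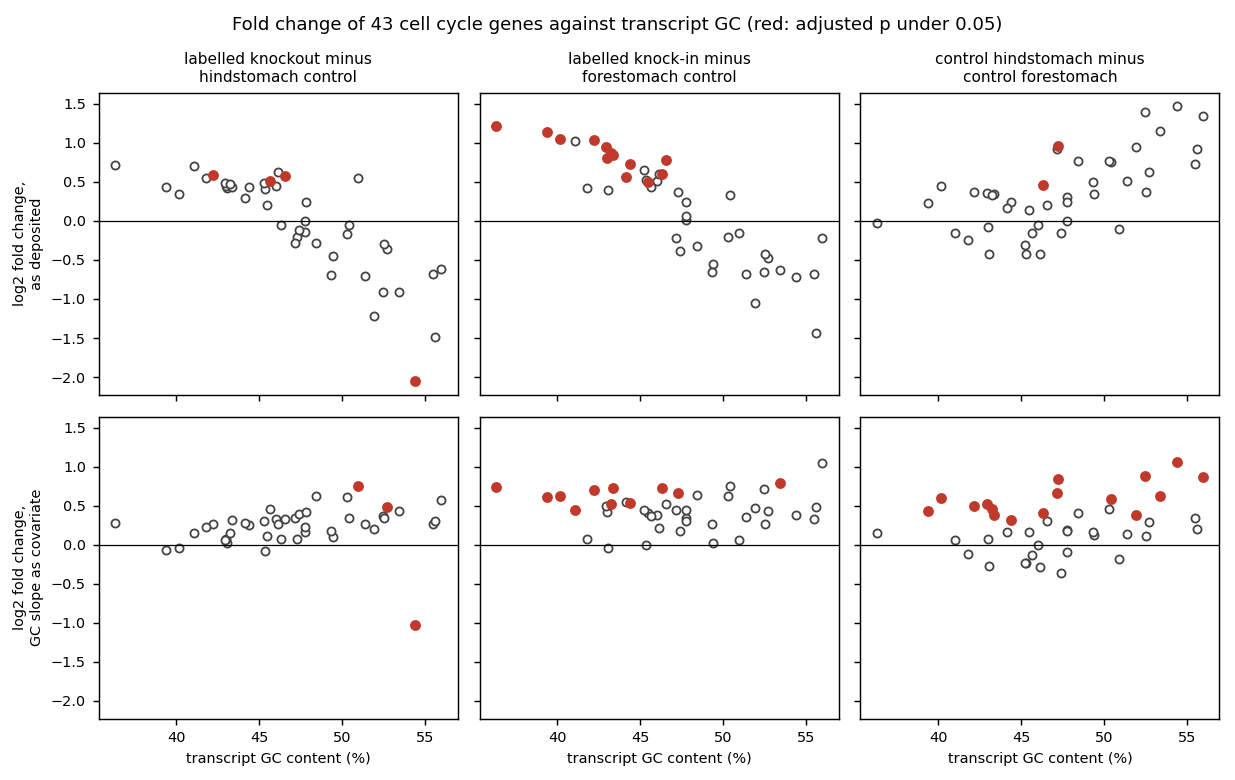
Log2 difference of the 43 members against transcript GC content (%), as deposited (top row) and with the GC slope as a covariate (bottom row), with members at an adjusted p under 0.05 in red. The downward trend in the knockout and knock-in panels (r of -0.811 and -0.886) is not seen in the lower panels (rho of 0.456 and -0.056), where Cdkn1a stays at -1.02 in the knockout comparison. The covariate is itself each library's slope on GC, so the fit removes such a trend over all genes by construction.

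Some genes that work as partners were compared along this axis. The first 3 pairs below set a gene of lower GC over one of higher GC and were picked after their values were seen, so their fall with the GC slope is a description only. Mcm4 (45.5% GC) and Mcm5 (51.9% GC) are subunits of 1 helicase and are needed in equal number. The ratio of their FPKM ran between 1.55 and 7.63 in the libraries labelled knockout, against 1.35 to 1.52 in hindstomach controls. It was 9.77, 14.9 and 3.79 in the libraries labelled knock-in, against 1.28, 1.55 and 9.03 in forestomach controls 2, 3 and 5. Ccne2 over Ccne1, the E-type cyclins, ran between 0.465 and 1.43 in the libraries labelled knockout, against 0.357 to 0.421 in hindstomach controls. The same ratio was 0.992 to 3.23 in the libraries labelled knock-in, against 0.329 to 2.03 in forestomach controls. Ccnb1 over Ccnb2, the B-type cyclins of mitosis, ran between 1.56 and 4.12 in the libraries labelled knockout, against 1.40 to 1.70 in hindstomach controls, and between 3.43 and 6.79 in those labelled knock-in, against 1.16 to 3.97 in forestomach controls. Rrm1 (44.4% GC) and Rrm2 (46.0% GC), the subunits of ribonucleotide reductase, are close in GC. Their ratio ran between 1.11 and 1.56 in the libraries labelled knockout, against 1.26 to 1.42 in hindstomach controls, and between 1.20 and 1.34 in those labelled knock-in, against 0.983 to 1.28 in forestomach controls.

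**Figure D5:**
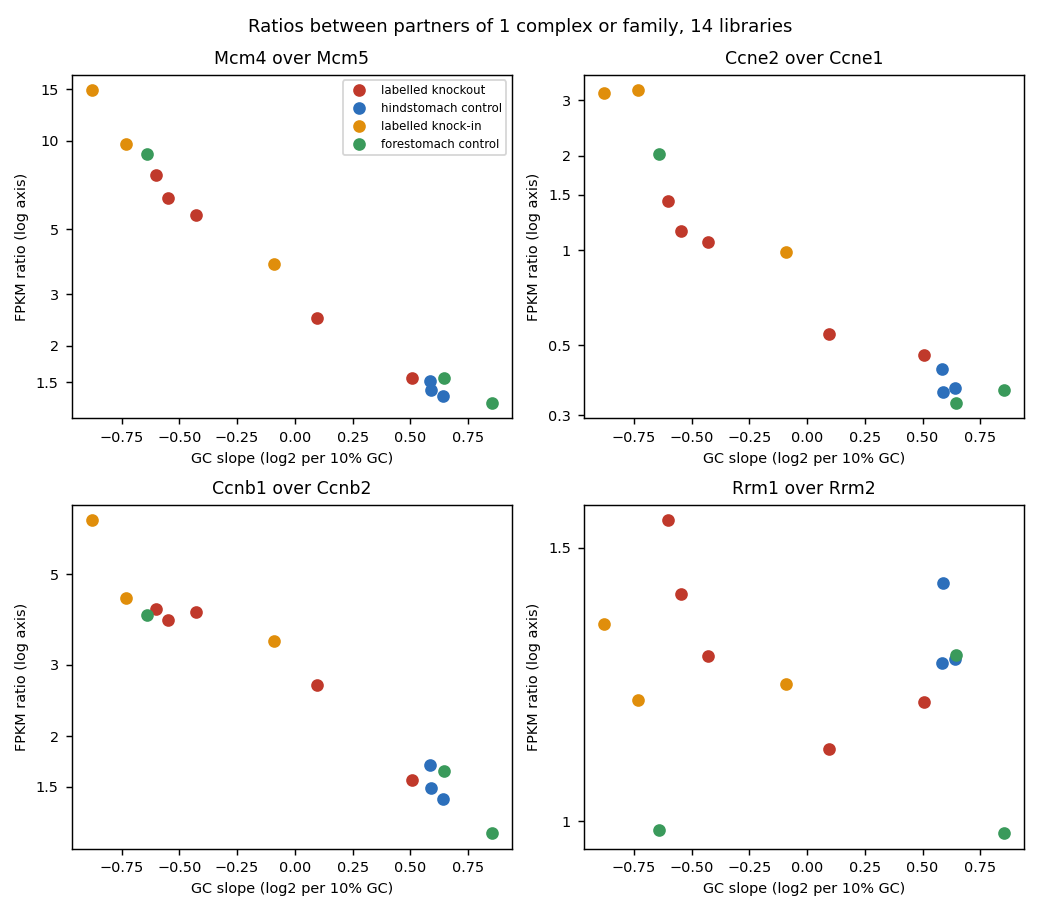
FPKM ratio (log axis, with its own range in each panel) of 4 pairs of partners against the GC slope of each of 14 libraries, coloured by group. Mcm4 over Mcm5, Ccne2 over Ccne1 and Ccnb1 over Ccnb2 fall with the slope, with forestomach control 5, at a slope of -0.639, among libraries labelled knockout and knock-in, whereas Rrm1 over Rrm2 stays between 0.983 and 1.56.

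Libraries of like GC slope allow a further description. The library labelled knockout 5 (slope 0.507) is the nearest of its group to the hindstomach controls (0.585 to 0.64). It lay above the range of the controls for 25 of 43 members, or 58.1%, against 33% of all genes, and below it for 4, or 9.3%, against 34.4% of all genes. Cdkn1a was 11.4 FPKM in that library, against at least 26.9 FPKM in the controls. In the forestomach, control 5 (slope -0.639) is nearest in slope to the libraries labelled knock-in 1 and 2. All 3 libraries labelled knock-in lay above it for 26 of 43 members, or 60.5%, against 18.2% of all genes, and below it for 1, or 2.33%, against 25.8% of all genes. This count includes the library labelled knock-in 4, whose slope of -0.0909 is not near that of forestomach control 5. Each of these descriptions rests on a single library and carries no test.

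A further 94 cell cycle genes outside the 43 were listed, and 93 of them could be tested. In the libraries labelled knockout 2 of the 93 rose and 2 fell, or 2.15% each, against 6.96% and 6.28% of all genes. The covariate fit had 3 that rose and 2 that fell, or 3.23% and 2.15%, against 7.63% and 4.7% of all genes. Cdkn1c, another CDK inhibitor of the Cdkn1 family and an imprinted gene, had 196, 163, 175, 159 and 127 FPKM in the libraries labelled knockout, against 82.8, 82.9 and 64.6 FPKM in hindstomach controls (1.08 ± 0.24, adjusted p = 0.0156). It therefore stood opposite to Cdkn1a, and it also rose with the GC slope as a covariate (0.68, adjusted p = 0.0393). Ckap2, a spindle protein, rose by 0.43 (adjusted p = 0.0494). Cdkn2b, an inhibitor of the G1 kinases, fell (-0.92, adjusted p = 0.025) at a low level, with 0.387, 0.214, 0.622, 0.0403 and 0.357 FPKM in the libraries labelled knockout, against 1.57, 1.48 and 1.41 FPKM in hindstomach controls. Wee1, the kinase that restrains Cdk1 before mitosis, had 41.9, 41.0, 46.9, 34.4 and 38.4 FPKM, against 60.2, 51.6 and 60.5 FPKM in hindstomach controls, and fell (-0.50, adjusted p = 0.0479).

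Of the 93 genes 9 rose (9.68%) and 4 fell (4.3%) in the libraries labelled knock-in, against 2.62% and 3.22% of all genes. In the covariate fit 17 rose (18.3%) and 3 fell (3.23%), against 2.62% and 3.06% of all genes. Wee1 had 42.5, 56.4 and 41.2 FPKM in libraries labelled knock-in, against 18.3, 20.6 and 25.5 FPKM in forestomach controls (1.08 ± 0.17, adjusted p = 0.00507). Mycn, a growth-promoting transcription factor of the Myc family, had 26.6, 23.8 and 42.9998 FPKM, against 7.39, 12.5 and 12.6 FPKM (1.43 ± 0.27, adjusted p = 0.0137). Both genes separated the groups without overlap. Cep55 of the midbody (0.96), the atypical E2F repressor E2f8 (0.71) and the spindle kinesin Kif15 (0.98) rose too, at adjusted p of 0.0203, 0.0269 and 0.0332. Cdkn2b had 0.127, 0.397 and 1.28 FPKM in libraries labelled knock-in, against 5.66, 3.50 and 5.66 FPKM in forestomach controls, and fell (-1.93, adjusted p = 0.00231). Its relative Cdkn2c (-1.11, adjusted p = 0.0256), the spindle protein gene Fam83d (-0.70, adjusted p = 0.0369) and Myc (-1.81, adjusted p = 0.0385) fell as well.

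Between control regions 7 of the 93 were higher in the hindstomach (7.53%) and 5 lower (5.38%), against 9.7% and 10.7% of all genes. Under the covariate 22 were higher (23.7%) and 7 lower (7.53%), against 22.2% and 19.8% of all genes. Wee1 had 60.2, 51.6 and 60.5 FPKM in hindstomach controls, against 18.3, 20.6 and 25.5 FPKM in forestomach controls (1.39 ± 0.17, adjusted p = 0.000122). Mycn was higher by 1.36 (adjusted p = 0.00295), Cdc6, which loads the helicase on origins, by 1.01 (adjusted p = 0.009), the phosphatase Cdc25a by 0.70 (adjusted p = 0.0211) and E2f3 by 0.47 (adjusted p = 0.0334). The 5 lower in the hindstomach were the CDK inhibitors Cdkn2c (-1.62, adjusted p = 0.000491), Cdkn1c (-1.61, adjusted p = 0.00103) and Cdkn2b (-1.23, adjusted p = 0.00502), the retinoblastoma gene Rb1, whose protein restrains E2F factors (-0.94, adjusted p = 0.0276), and Fam83d (-0.82, adjusted p = 0.00405). Cdkn1c had 82.8, 82.9 and 64.6 FPKM in hindstomach controls, against 228, 165 and 345 FPKM in forestomach controls, so its difference had the opposite sign to that of Cdkn1a between regions, as in the knockout comparison. The hindstomach controls enter both of these comparisons.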

How the data were processed

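RNA-seq of 14 libraries in 4 groups, set from the submitters' sample titles, was used. Per the labels' protocols, RNA was isolated on NucleoSpin columns and a strand-preserving NEBNext Ultra II protocol was followed. Values of all 14 libraries came as a single table of FPKM deposited by the authors. The submitters' processing notes name the build mm9. The sources used here name no aligner, counter or annotation, so fragments of near-identical or overlapping genes may be split or shared.

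Of 22906 entries 108 exact duplicates were dropped. Genes at 1 FPKM or more in at least 3 libraries were kept (12694), and log2(FPKM + 1) was fitted with limma 3.58.1 (R 4.3.3, trend and robust options, statmod 1.5.0), 1 mean per group over all libraries, without further scaling. Fold changes on this scale understate the change of low genes. Calls were made at a Benjamini-Hochberg adjusted p under 0.05 over all genes tested. The fit was tested on simulated data. Transcript GC came from the longest transcript in a GRCm38 annotation, a build other than the authors' (12609 genes matched). Promoter sequences came from RefSeq. A count test was not run, since the values are not counts.

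The members and all lists were chosen with earlier results of these data known. Values in every library are given for called members (the 10 with the smallest adjusted p where more than 10 were called in 1 direction), for Mki67 and the CDK inhibitors, and the extreme members of each comparison are named. Of the other cell cycle genes up to 5 called genes per comparison and direction with the smallest adjusted p are named. Values of Ccnd1 and Prc1 in a comparison that did not call them as deposited, of the partner ratios, and of Mcm3, Mcm7, Bub1 and Ccne1 were added after they were seen. Alternatives were another pseudocount, no filter, rescaling, quantile normalization, a GC slope or residual component as covariate, the compared groups alone, leaving out each replicate and a replicate block. Fits of the blocked libraries without the block were chosen after seeing the data.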

Additional observations from a re-analysis of the deposited data

Results flagged for a closer look

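Cdkn1a was 11.4 FPKM in the library labelled knockout 5, whose distance from the next library of that group was 0.842 of the group's range, above Dixon's 95% critical value of 0.71. It was the only 1 of 43 members to stand apart in this way in the 5 libraries labelled knockout, where chance gives 2.15, and 0 of 20 other cell cycle genes that were called in some comparison did so. Groups of 3 libraries could not be checked. That library also had the highest Gata4 level of its group, at 59.6 FPKM, and the highest GC slope, at 0.507, and their part in the Cdkn1a value was not tested.

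Among the members Kif23 differed between the hindstomach and forestomach effects, with a knockout effect minus knock-in effect of -0.645 (limma adjusted p = 0.0285). Of the other cell cycle genes 5 did so as well. Wee1 gave -1.582 (adjusted p = 0.002): it fell in the libraries labelled knockout (-0.50) and rose in those labelled knock-in (1.08). Mycn gave -1.292 (adjusted p = 0.0363) and E2f8 gave -0.963 (adjusted p = 0.0127). Both had risen in the libraries labelled knock-in, and their knockout differences, 0.14 and -0.25, did not pass. Cdkn1c gave 1.839 (adjusted p = 0.00807), with a rise in the libraries labelled knockout (1.08) and a knock-in difference of -0.76 that did not pass. Cdkn2c gave 1.65 (adjusted p = 0.00803), with a fall in the libraries labelled knock-in (-1.11). All 6 genes kept this difference with the GC slope as a covariate, at adjusted p between 5.78e-05 and 0.0128.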

How the results depend on the processing

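None of the called members changed direction under any alternative run, and the counts of members that passed moved more than their medians. In the knockout comparison (3 higher, 1 lower as deposited) the members higher numbered 12 after rescaling to a common FPKM sum, 13 after quantile normalization, 20 with the first residual component as a covariate and 15 with the compared groups alone. The residual component gave 11 lower, and the median was 0.494 after rescaling. Calls over all genes in these fits were 1939, 2480, 7838 and 4991 in that order, against 1680 as deposited. In the knock-in comparison (13 higher, 0 lower) the residual component gave 22 higher and 11 lower, the compared groups alone gave 0 higher, and the median was 0.800 after rescaling. Over all genes the residual component called 7893 and the compared groups alone 0, against 742 as deposited. Between regions (2 higher, 0 lower) 4 were higher after rescaling and after quantile normalization, 16 with the GC slope, 22 with the residual component, which gave 3 lower, and 1 with the compared groups alone. The calls over all genes were 2320, 2483, 5337, 7085 and 1431 in that order, against 2583 as deposited. For the knockout effect minus the knock-in effect (0 higher, 1 lower) rescaling gave 0 lower, the GC slope 1 higher and 5 lower, and the residual component 1 higher and 6 lower. These fits called 969, 3439 and 3533 of all genes, against 1372 as deposited. The causes of these shifts were not tested.

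Leaving out each replicate gave 0 to 12 higher and 0 to 1 lower in the knockout comparison, where 0 lower came without hindstomach control 2 or 4. It gave 0 to 20 higher and 0 to 8 lower in the knock-in comparison, 1 to 4 higher and 0 lower between regions, and 0 to 1 higher and 0 to 2 lower for the difference of effects. Medians ran between 0.166 and 0.232, 0.211 and 0.422, 0.198 and 0.36, and -0.349 and 0.007 in that order. The region count was 4 without forestomach control 3 and 1 without any of hindstomach controls 2, 3 and 4 or forestomach control 5.

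Replicate numbers were tried as a block. The deviations of same-numbered libraries from their group means had correlations of 0.14, -0.00284 and -0.179 in the hindstomach. Between regions the correlation was 0.158 for both of the 2 shared numbers, which must be equal with 2 libraries per group. Whether same-numbered libraries share more than a number is not stated, and these correlations cannot decide it. Only numbers shared by both groups can be blocked, which are 2, 3 and 4 in the hindstomach. The replicate block gave 14 higher and 9 lower in the knockout comparison, against 19 and 10 for the same libraries unblocked. Over all genes these fits called 5415 and 6640, against 1680 with all libraries. Between regions the block gave 5 higher, against 3 unblocked. There 2774 of all genes were called with the block and 2323 unblocked, against 2583 with all libraries. No paired analysis was possible for the knock-in comparison because its groups share only the number 2. Absolute depth is unknown, so counting error per gene is unknown too.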
